A study of Mus musculus with 59 samples.

Results

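The regions described here are stretches of the mouse autosomes (build mm9) that carried an H3K27ac peak in all 11 brainstem tumours and shared no base with an H3K4me3 peak in any of the 5 tumours in which H3K4me3 was profiled. They were chosen by measured values: the deposited H3K27ac peaks of the 11 tumours were merged wherever they shared a base, which gave 97498 regions, and 14660 of these were called in all 11 lists. Of the 14660, 13191 shared a base with an H3K4me3 peak of BT-2, BT-6, BT-7, BT-9 or BT-10, and the other 1469 are the shared distal regions. "Distal" here means only that H3K4me3 was not called over the region in those 5 tumours. The series holds no H3K4me3 sample of the other 6 tumours, so the mark over these regions is not known there. Distances to gene starts were not analysed here. Without an mm9 gene annotation the regions are named by position, and the tumours could not be checked against cell type markers.

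The series profiled histone marks by chromatin immunoprecipitation and sequencing (ChIP-seq) in mice carrying a tagged knock-in allele of H3f3a, the gene for histone H3.3, with either the K27M change or the wild-type sequence (WT). The 6 K27M tumours (BT-1 to BT-6) carried Nestin-creERT2, H3f3aLSL-K27M-Tag/+, LSL-PDGFRαV544ins and Trp53flox/flox, and the 5 WT tumours (BT-7 to BT-11) carried H3f3aLSL-WT-Tag/+ in place of the K27M allele and the same other alleles, so both genotypes had the mutant PDGFRα and the conditional Trp53 alleles. H3K27me3 was also profiled in neurospheres, cultures of neural precursors from e15.5 mouse brain, with Nestin-cre and no PDGFRα or Trp53 allele: 3 K27M and 3 WT libraries from hindbrain and 3 K27M libraries from forebrain. Recombination was driven by Nestin-creERT2 in the tumours and by Nestin-cre in the neurospheres, and no forebrain WT list was used here. K27M tumours came from 4 males and 2 females and WT tumours from 1 male and 4 females.

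H3K27ac is the acetyl mark of active enhancers and active promoters, and H3K4me3 is the mark of promoters, so a peak of the first without the second is the usual ChIP-seq picture of an active enhancer. H3K27me3 is laid down by Polycomb repressive complex 2 on the same lysine, and a single histone tail cannot hold both the acetyl and the trimethyl mark. The K27M histone is known to inhibit that complex, with a broad loss of H3K27me3 and its retention at some sites.

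The H3K27ac lists held 36284 to 61251 peaks per tumour, the H3K4me3 lists 28480 to 34291 peaks, and the H3K27me3 lists 6905 to 42879 islands, with 3208588 to 16323822 reads inside islands per library. Total library depth and background are not given in these lists, so the absence of a peak or island means only that none was called. Islands covered 2.71% to 9.34% of the autosomes in K27M tumours and 3.14% to 12.2% in WT tumours, and 1.51% to 1.85% in K27M and 5.86% to 7.71% in WT hindbrain neurospheres. All lists came from bulk tumour or culture, so fewer marked cells and less mark per cell cannot be told apart.

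The share of regions without H3K4me3 was lower among regions called in more lists. Regions without H3K4me3 made up 87.0% of the regions called in 1 list, 50.1% of those called in 8, 35.2% of those called in 10 and 10.0% of those called in all 11. Regions of more lists were also wider, and a single shared base with H3K4me3 removed a region. The median width of those without H3K4me3 was 260 bp for 1 list and 2479 bp for all 11. The part of width in this trend was not tested. The 1469 shared distal regions were 2.26% of the 64889 regions without H3K4me3. Just outside the rule stood 990 distal regions called in 10 lists, most often missed by BT-8 (146 regions), BT-11 (142) and BT-9 (137) and least often by BT-6 (7). On the other side stood 419 regions called in all 11 lists that met H3K4me3 in 1 tumour only, against 11951 that met it in all 5. The closest shared distal region lay 33 bp from an H3K4me3 peak, and 75 lay within 1000 bp.

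**Figure D1:**
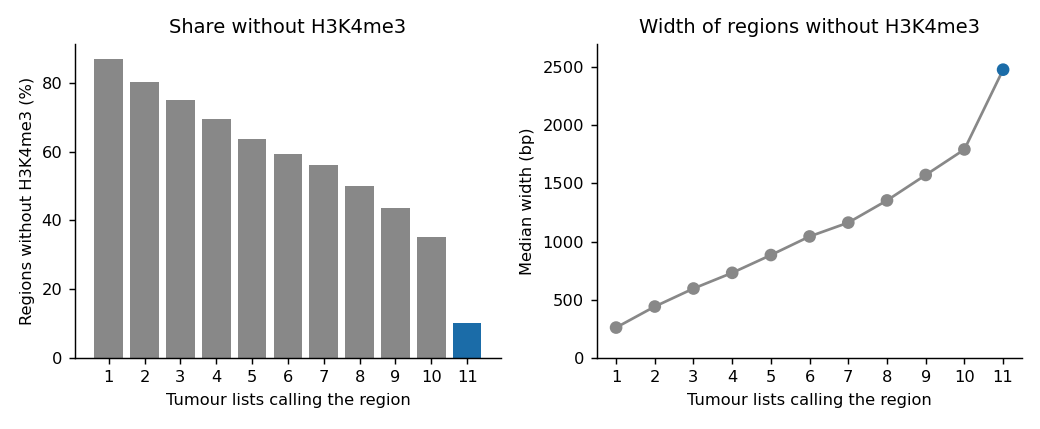
Left, the share (%) of merged H3K27ac regions without H3K4me3, by the number of tumour lists that called them. Right, the median width (bp) of the regions without H3K4me3. The blue bar and point are the 1469 regions called in all 11 lists: their share was 10.0% and their median width 2479 bp, against 35.2% and 1792 bp for regions of 10 lists. The part of width in the share was not tested.

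The shared distal regions were wide. Their merged width had a median of 2479 bp, with quartiles of 1825 and 3393 bp and a range of 467 to 14538 bp, and together they covered 4.17 Mb. The length called within a tumour had a median of 1397 bp, close to the 1383 bp of the shared regions with H3K4me3 and above the 305 bp of distal regions called in 1 to 10 lists. Merged width in those sets was 1972 and 370 bp. Since merging over 11 lists widens a region, and since calls in every list chose the regions, widths are a description. Wider than 5 kb were 115 of the 1469 (7.83%), against 6.20% of the shared regions with H3K4me3 and 0.0363% of the other distal regions. The 990 regions just outside the rule had a median width of 1792 bp.

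The 5 widest regions by called length were chr10:82597545-82609490, with a median called length of 10628 bp, chr11:61339410-61353947 (10466 bp), chr17:10585103-10598014 (9552 bp), chr2:177887714-177896960 (8189 bp) and chr1:161689374-161698774 (8169 bp). The first was called over 6520 to 11792 bp in the 11 tumours and lay 638 bp from H3K4me3. The region on chromosome 2 ranged from 1930 to 9077 bp, so a wide region in most tumours was a short one in at least 1.

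Strength was ranked within each list by the authors' fold enrichment of the best peak in the region, as a percentile in which 100 is the strongest peak. The shared distal regions were of middle rank in every tumour. Their median percentile ran from 52.4 in BT-4 to 73.6 in BT-7, with 67.2 as the median of the 11 tumours. Shared regions with H3K4me3 had medians of 78.9 to 88.2, and distal regions of fewer lists 27.7 to 34.6, so the 3 ranges did not overlap. Since calls in every list chose the regions, ranks too are a description. The rank is also the best of several peaks in many regions. Per tumour, a single peak was called over 33.3% to 66.9% of the shared distal regions and 82.35% to 91.54% of the other distal regions called. The authors' fold enrichment over the shared distal regions had a median of 5.80 to 9.76 by tumour, against 8.63 to 18.9 with H3K4me3 and 4.33 to 5.03 for other distal regions. In the top 10% of a list lay 0.136% of the shared distal regions in BT-2 and 8.10% in BT-3, and 25.2% to 43.1% of the shared regions with H3K4me3.

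**Figure D2:**
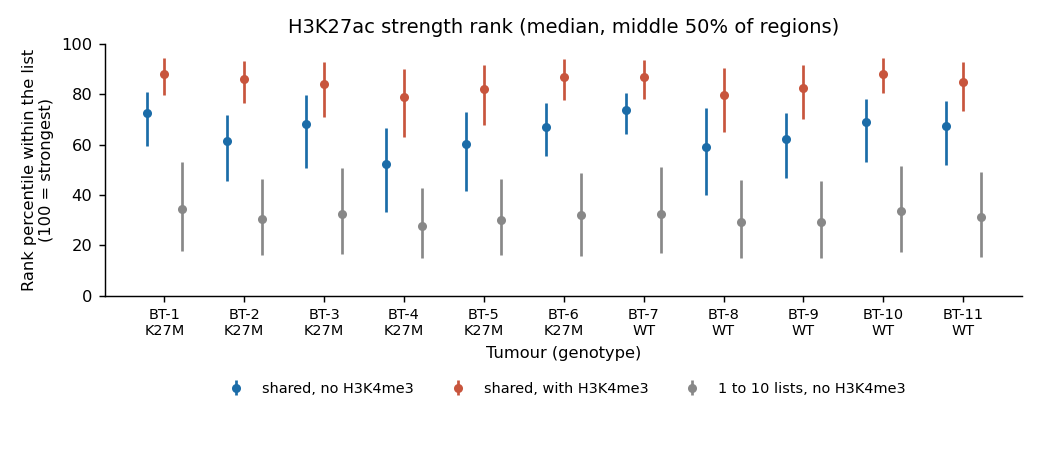
H3K27ac rank percentile within the list (100 = strongest) of the shared distal regions (blue), shared regions with H3K4me3 (red) and distal regions of 1 to 10 lists (grey) in each tumour. Points are medians and lines span the middle 50% of regions. Blue medians lie between 52.4 and 73.6 and are between the other sets in every tumour. Blue and red regions were chosen by a call in every list, so the ranks are a description.

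Few shared distal regions were strong everywhere. In the upper 50% of every list were 260 (17.7%), against 68.2% of the shared regions with H3K4me3. None was in the top 10% of every list, where 784 regions with H3K4me3 were, and 246 (16.7%) reached the top 10% of at least 1 list. No region was in the lower 50% of every list.

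The strongest region on average, chr17:84407454-84410810, had percentiles of 79.4 to 98.5 with a median of 92.1, and a fold enrichment of 9.60 to 30.8. It was 3357 bp wide and lay 16.9 kb from H3K4me3. Next came chr15:37426105-37431289 (78.2 to 99.5, median 89.96), chr10:82597545-82609490 (78.6 to 97.4, median 90.2), chr5:22666941-22676442 (78.6 to 99.7, median 90.4) and chr17:9965831-9969096 (79.6 to 98.1, median 88.9). None of the 5 fell below 78.2 in any tumour. The region on chromosome 5 read 97.0, 99.7, 98.1, 80.1 and 95.9 in the WT tumours BT-7 to BT-11 and 85.9, 78.6, 92.2, 84.5, 80.0 and 90.4 in the K27M tumours BT-1 to BT-6. Of these 5, 3 had no H3K27me3 island in any of the 20 libraries, chr10:82597545-82609490 had 1 in BT-3 alone, and chr17:9965831-9969096 had islands in 4 K27M tumours.

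At the other end, chr13:102466134-102466781 ranged from 0.801 in BT-8 to 71.9 in BT-10, with a median of 23.0. The other 4 weakest were chr11:100689800-100690588 (1.27 to 68.9), chr5:24458558-24459976 (1.52 to 61.8), chr6:114810891-114811989 (1.95 to 74.4) and chr14:46082199-46083600 (3.402 to 51.8). These were near the bottom of some lists and well inside others, and none carried an H3K27me3 island in any library. All 5 were narrow, with median called lengths of 362 to 739 bp.

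Ranks of the shared distal regions varied between tumours. The SD of a region's percentile over the 11 tumours had a median of 17.7. Over the 55 pairs of tumours, Spearman's rho across the shared distal regions ran from 0.155 to 0.566 with a median of 0.36, and from 0.556 to 0.8004 with a median of 0.685 across all 14660 regions called in every list. These are correlations across regions, which are not independent, and the 14660 span a wider range of ranks. A single peak was called over 33.3% to 66.9% of the shared distal regions per tumour and over 55.6% to 80.6% of the shared regions with H3K4me3. The summit of the best peak lay within a middle 50% spread of 285 bp (median region) over the tumours, against 68.5 bp with H3K4me3. That spread was at most 500 bp in 1004 regions (68.4%), and the full range of summits had a median of 973 bp.

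Shared distal regions were sparse, and most stood alone. The gap to the next one on the chromosome had a median of 320 kb (quartiles 41.0 and 1503 kb). Of 1450 gaps, 215 (14.8%) were at most 12.5 kb, against 21.9% for the 13191 shared regions with H3K4me3 and 66.8% for the 63420 other distal regions, which are denser sets. Joined at that distance, the regions formed 1254 runs: 1092 lone regions and 162 runs of 2 or more, which held 377 regions (25.7%). Only 10 runs held 4 or more. The longest was chr12:88110120-88158890, with 7 regions in 48.8 kb and a best mean percentile of 81.0. Runs of 5 regions stood at chr17:84455431-84500409 (45.0 kb) and chr8:129348005-129377188 (29.2 kb, best mean percentile 88.1).

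Density was 5.94 shared distal regions per 10 Mb over the 19 autosomes. It was highest on chromosome 11 (11.4, 139 regions) and chromosome 17 (10.7, 102 regions) and lowest on chromosome 18 (3.42) and chromosome 3 (3.45). Part of this followed the H3K27ac calls as a whole, since chromosome 11 also held 1292 of the 14660 regions called in every list. As a share of the regions called in every list, the shared distal regions made up 10.8% on chromosome 11, 13.3% on chromosome 17, 5.75% on chromosome 19 and 10.0% overall.

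The nearest H3K4me3 peak lay at a median of 13.2 kb (quartiles 5.24 and 30.7 kb), close to the 12.8 kb of the other distal regions. Within 2.5 kb of H3K4me3 were 176 (11.98%) and beyond 50 kb were 202 (13.8%). The mean percentile over the 11 lists had a median of 58.0 in the first and 62.2 in the second.

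K27M and WT tumours were compared at each region by its percentile among the 14660 regions called in every list, with limma, which fits 1 linear model per region with a shared estimate of the spread, and Benjamini-Hochberg adjustment over the 14660. No shared distal region passed an adjusted p of 0.05. Over all 14660, 1 (0.00682%) was called higher in K27M and 0% lower. At an unadjusted p under 0.05 were 67 shared distal regions (4.56%), against 8.05% of all 14660, and the median difference was -0.89 percentile points. No genotype difference in H3K27ac rank was therefore detectable for any named region at this number of tumours. The rule had already removed every region without a peak in some tumour, so a peak lost in 1 genotype could not appear here. The shared distal regions also ranked low among the 14660, with medians of 11.95 (BT-10) to 24.5 (BT-3), against 53.2 to 54.7 with H3K4me3. The part of these limits in the 4.56% was not tested. The values of the regions with the smallest p are given as a description.

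Among these, chr17:35887386-35891471 had percentiles of 58.0, 40.7, 82.0, 69.9, 62.7 and 46.2 in BT-1 to BT-6 and 18.9, 27.5, 54.4, 27.6 and 21.1 in BT-7 to BT-11. The groups overlapped only through BT-9, and the mean difference was 29.99 percentile points (SE 8.64, limma adjusted p = 0.426). It was 16.9 with peaks ranked by -log10 p and 2.70 by summed peak length. The region chr15:61910060-61913740 went the other way, with 22.2, 46.6, 39.6, 29.1, 15.4 and 17.0 in K27M and 67.9, 79.3, 58.8, 64.2 and 43.2 in WT tumours. Its difference was -34.38 (SE 7.93, limma adjusted p = 0.288), and BT-2 was the only K27M tumour above the lowest WT tumour. The others were chr5:34034491-34036153 (22.6, adjusted p = 0.426) and chr1:137438634-137440279 (18.7, adjusted p = 0.484) in the K27M direction, and chr2:91810381-91813682 (-25.31, adjusted p = 0.392) and chr4:140213186-140215579 (-31.33, adjusted p = 0.426) in the WT direction, all by limma. Ranked by summed peak length, chr2:91810381-91813682 differed by -6.02.

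H3K27me3 islands over these regions, which the rule did not use, were uncommon in most tumours and more common in K27M than in WT tumours relative to coverage. An island shared at least 1 base with 9.33%, 10.0%, 22.4%, 3.20%, 1.498% and 3.88% of the 1469 regions in the K27M tumours BT-1 to BT-6. The shares were 0.613%, 0.408%, 1.84%, 5.65% and 0.204% in the WT tumours BT-7 to BT-11. BT-3 was highest, and the WT tumour BT-10, whose islands covered the largest part of the genome, exceeded 3 K27M tumours. The means were 8.38% ± 7.67 (SD, n = 6) and 1.74% ± 2.28 (SD, n = 5), and the difference of 6.64 points missed the threshold (two-sided exact permutation test, p = 0.0736, smallest possible 0.00216; 0.123 after Benjamini-Hochberg adjustment over 5 tests of this share). Without BT-3 the difference was 3.84 points (exact permutation p = 0.111). Taken as a difference from the shared regions with H3K4me3 in the same tumour, it was 0.151 points (exact permutation p = 0.931).

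Because islands covered different parts of the genome in each library, the share of region midpoints inside islands was also divided by the share of the autosomes that islands covered, a measure added after the data were seen. A ratio of 1 is what islands placed without regard to these regions would give. It was 0.920, 0.896, 1.99, 0.502, 0.426 and 0.662 in BT-1 to BT-6 and 0.0173, 0, 0.109, 0.251 and 0.0433 in BT-7 to BT-11. Every K27M tumour lay above every WT tumour. The means were 0.899 ± 0.570 (SD, n = 6) and 0.0840 ± 0.102 (SD, n = 5), a difference of 0.815 with SE 0.237 (two-sided exact permutation test, p = 0.00649; adjusted p = 0.0303 over 14 tests of this ratio). Without BT-3 the difference was 0.597 (exact permutation p = 0.00794).

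**Figure D3:**
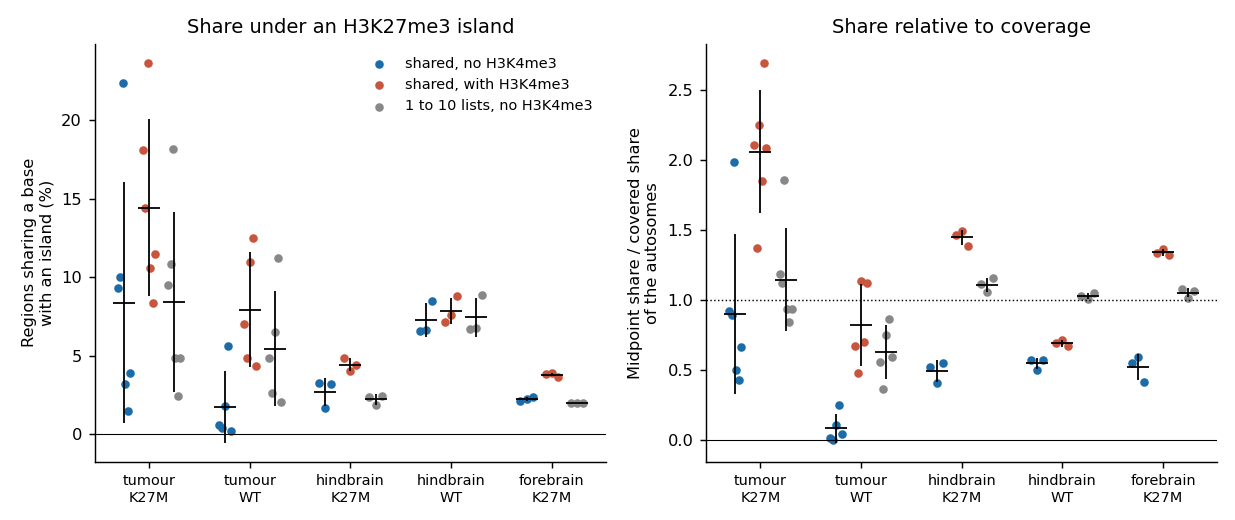
Left, the share (%) of regions that shared a base with an H3K27me3 island, and right, the share of midpoints in islands divided by the covered share of the autosomes (dotted line: 1), for shared distal regions (blue), shared regions with H3K4me3 (red) and distal regions of 1 to 10 lists (grey). Points are libraries, with the mean (dash) and SD (line) per group. On the right, blue points of WT tumours lie at 0.251 or below and those of K27M tumours at 0.426 or above.

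The higher ratio in K27M tumours was not particular to the shared distal regions. Shared regions with H3K4me3 had 2.06 ± 0.438 in K27M and 0.823 ± 0.293 in WT tumours (SD, n = 6 and 5; exact permutation p = 0.00433, adjusted p = 0.0303), and other distal regions 1.15 ± 0.370 and 0.628 ± 0.194 (exact permutation p = 0.00866, adjusted p = 0.0303). The difference between genotypes was larger in the shared distal regions than in the other distal regions by 0.297 (two-sided exact permutation of genotype, p = 0.013, adjusted p = 0.0364, n = 11). Against the shared regions with H3K4me3 the same difference was -0.421, which did not pass (exact permutation p = 0.255, adjusted p = 0.357, n = 11). The other distal regions mostly had no H3K27ac peak in the tumour concerned, while the rule required one of the shared distal regions. The part of this selection in the 0.297 was not tested.

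Within a tumour, the shared distal regions met islands less often than the shared regions with H3K4me3. The share was lower in 11 of 11 tumours, and the mean difference was -6.12 points ± 2.34 (SD of the differences; two-sided exact sign-flip permutation test, p = 0.000977, the smallest possible with 11 tumours; adjusted p = 0.00489). Against distal regions of fewer lists it was lower in 10 of 11 tumours, with a mean difference of -1.73 points (exact sign-flip permutation p = 0.0596, adjusted p = 0.123). By midpoint, which does not depend on width, that difference was -2.61 points and passed (exact sign-flip permutation p = 0.00293). By midpoint the difference was -4.24 points in the WT and -1.24 in the K27M tumours, and these 2 values differed (exact permutation of genotype, p = 0.013, n = 6 and 5). By any overlap they were -3.72 and -0.0651 (exact permutation p = 0.00216, the smallest possible). In K27M tumours 5 of 6 were lower, and BT-3 was higher (22.4% against 18.2%), without which the mean by any overlap was -0.916. By the rule, every shared distal region had an H3K27ac peak in the tumour tested. Of the 63420 other distal regions, only 5055 (BT-4) to 23195 (BT-10) had one in a given tumour. The 2 sets thus differed in H3K27ac by selection, and the part of this in the differences between them was not tested. The 990 regions just outside the rule had similar shares, 8.40% ± 7.54 in K27M and 2.46% ± 3.14 in WT tumours (SD, n = 6 and 5).

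No island was called in any tumour over 1072 of the 1469 regions (73.0%), and none in any of the 20 libraries over 1007 (68.5%). These shares were near those of all merged regions (68.3% and 65.7%), of the shared regions with H3K4me3 (69.7% and 67.7%) and of the other distal regions (73.4% and 70.4%). Of the 397 regions with an island in at least 1 tumour, 200 had it in exactly 1, and in 148 of these the tumour was BT-3. Leaving BT-3 out, 249 regions remained. Islands in K27M tumours only were found over 304 regions (20.69%), in WT tumours only over 21 (1.43%), and in both over 72 (4.90%). The 304 include the 148 with an island in BT-3 alone. Among all 97498 merged regions these counts were 11744 (12.05%), 4113 (4.22%) and 15011 (15.4%). There were 26 regions (1.77%) with islands in 6 or more tumours, and 1 (0.0681%) with islands in all 11, against 8.74% and 2.36% of all merged regions.

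That 1 region was chr5:34034491-34036153, 1663 bp wide and 1.66 kb from H3K4me3. Its islands held 32.5 to 53.1 reads per kb in K27M tumours and 23.1 to 49.5 in WT tumours, and no island was called there in any of the 9 neurosphere libraries. Reads per kb are raw counts and depend on the depth of the library, so the 2 groups are not compared. H3K27ac was moderate at this region, with percentiles of 16.4 in BT-10 to 78.1 in BT-5. The 3 regions next in order, named after their values were seen, were chr11:102797400-102801781 with islands in 10 tumours, and chr7:146729397-146733814 and chr14:30822838-30825827 with islands in 8 each. The first missed only BT-8 and also had islands in all 3 WT hindbrain libraries, 2 K27M hindbrain libraries and 1 forebrain library. The last lay 46 bp from an H3K4me3 peak.

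**Figure D4:**
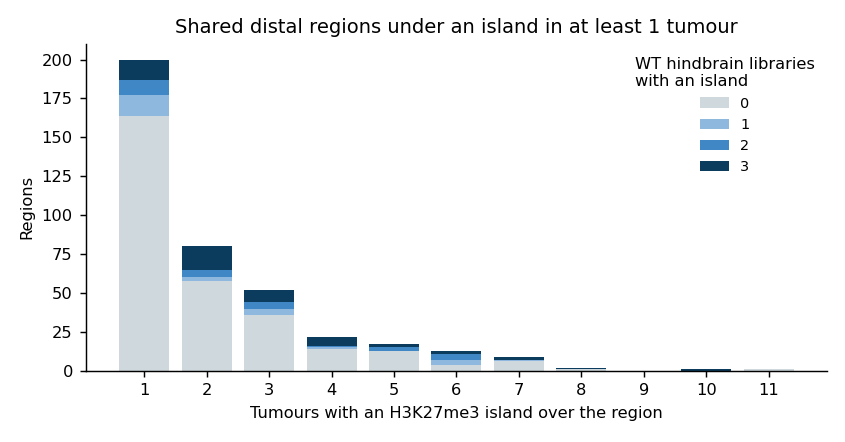
Number of shared distal regions by the number of tumours (of 11) with an H3K27me3 island over them, split by how many of the 3 WT hindbrain libraries had one. The 1072 regions with no island in any tumour are not drawn, and 200 of the 397 drawn had an island in 1 tumour only.

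Per region, island calls in 6 K27M against 5 WT tumours were compared by Fisher's exact test, adjusted over the 6894 of 97498 merged regions whose number of calls could reach an unadjusted p under 0.05. Of the shared distal regions 61 could, and none passed an adjusted p of 0.05, nor did any merged region (0%). The smallest p that Fisher's exact test can give here is 0.00216, for an island in all tumours of 1 genotype and none of the other. Whether that split passes depends on how many tested regions share it. Here 149 merged regions had it in the K27M and 15 in the WT direction, and the smallest adjusted p (Fisher) was 0.0910. No single region could therefore pass. At an unadjusted p under 0.05, 20 shared distal regions (1.36%) were called more often in K27M and none in WT tumours, against 0.773% and 0.102% of all merged regions. With the same number of the strongest islands in every tumour (10716), 2 neighbouring regions passed, chr7:86712638-86716180 and chr7:86716328-86719740 (6 of 6 K27M and 0 of 5 WT tumours each, Fisher's exact test, adjusted p = 0.0365), where 5.94% of the 5408 merged regions tested did. In the full lists the second of these also had an island in a WT tumour, which the cut to the strongest islands removed.

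With the full lists, 4 regions (0.272%) had an island in all 6 K27M and no WT tumour, against 0.153% of all merged regions and 0.394% of the shared regions with H3K4me3. They were chr7:86712638-86716180 (18.6 to 69.2 reads per kb of island in the K27M tumours), chr1:190837026-190840911 (23.1 to 51.1), chr4:125210272-125213544 (20.6 to 40.7) and chr9:122621908-122624664 (16.6 to 46.5). Of the 4, 3 had no island in any neurosphere library, and the last had 1, in the WT hindbrain library of experiment 1. All 4 had an H3K27ac peak in the same 6 K27M tumours, by the rule that chose them, and their lowest percentiles in any list were 53.5, 56.1, 4.71 (in BT-2) and 33.9, in the order given.

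Among the shared distal regions, the H3K27ac rank of those under an island, relative to the rest, was lower in the WT than in the K27M tumours. In K27M tumours the median percentile of the regions under an island minus that of the rest was -0.513, 1.23, 4.42, 9.24, -2.64 and 3.28 in BT-1 to BT-6. In WT tumours it was -5.45, -4.18, -12.6, -10.7 and -20.7 in BT-7 to BT-11. Regions under islands ranked lower than the rest in 5 of 5 WT tumours and in 2 of 6 K27M tumours, and the groups did not overlap. The means were 2.50 ± 4.17 (SD, n = 6) and -10.73 ± 6.60 (SD, n = 5), a difference of 13.2 percentile points (two-sided exact permutation test, p = 0.00216, the smallest possible). This comparison was made after the data were seen. It uses H3K27ac ranks of regions that the rule kept for an H3K27ac call in every tumour. Regions without a peak in any 1 tumour, under an island or not, are therefore not in it. The regions under islands numbered 22 to 329 in K27M tumours, but only 9, 6, 27, 83 and 3 in the WT tumours. With the tumours that had at least 20, which leaves BT-9 and BT-10 as the WT group, the difference was 14.2 (exact permutation p = 0.0357, the smallest possible).

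**Figure D5:**
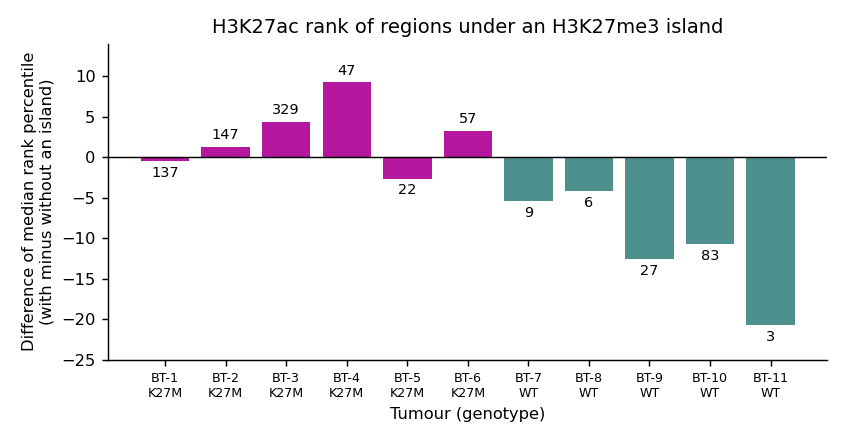
Median H3K27ac rank percentile of the shared distal regions under an H3K27me3 island minus that of the others, in each tumour. Numbers at the bars count the regions under an island. All 5 WT bars lie at -4.18 or below, and the K27M bars run from -2.64 to 9.24.

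Islands over these regions were longer than islands at large. Their median length was 6.2 to 16.7 kb in K27M tumours and 6.4 to 16.6 kb in WT tumours, against 3.6 to 6.6 and 3.2 to 6.4 kb for all autosomal islands of the same lists. The medians over these regions rest on 20 to 325 islands per K27M tumour. In WT tumours they rest on 2 (BT-11, with the 16.6 kb) to 89 (BT-10). Longer islands meet more regions, whatever the regions are. In K27M tumours 73.7% to 84.2% of the regions touched by an island had their midpoint inside it, and in WT tumours 0% to 66.7%, so islands of WT tumours more often touched only an edge. That measure rests on 3 to 83 regions per WT tumour.

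Islands were more often found near H3K4me3 than far from it, and width and grouping went with smaller differences. An island in at least 1 tumour was found over 30.4% of the 115 regions wider than 5 kb and 26.7% of the rest, and over 29.4% of the 377 regions in runs and 26.2% of the lone ones. It was found over 30.1% of the 176 regions within 2.5 kb of H3K4me3 and 18.3% of the 202 beyond 50 kb. In K27M tumours those last shares per tumour were 11.2% ± 7.98 and 4.95% ± 4.82 (SD, n = 6), and in WT tumours 2.73% ± 2.55 and 0.990% ± 1.40 (SD, n = 5). These differences were not tested.

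In hindbrain neurospheres the order of the genotypes was the opposite of that in tumours. Islands met 3.27%, 1.70% and 3.20% of the shared distal regions in the K27M libraries of experiments 1, 2 and 3, and 6.60%, 6.67% and 8.51% in the WT libraries. Every WT library lay above every K27M library. The means were 2.72% ± 0.885 and 7.26% ± 1.08 (SD, n = 3 each), a difference of -4.54 points (two-sided exact permutation test, p = 0.1, the smallest that 3 against 3 can give; adjusted p = 0.125). The K27M libraries also had the smaller covered share of the autosomes, and relative to it the ratio by midpoint was 0.494 ± 0.0771 in K27M and 0.549 ± 0.0387 in WT (SD, n = 3 each; exact permutation p = 0.4, adjusted p = 0.431). The midpoint ratio was below 1 in all 6 libraries and its groups overlapped. With the same number of the strongest islands in every library the ratio difference was -0.203 (exact permutation p = 0.1, the smallest possible), against -0.0556 with the full lists. Counted by any overlap, the ratio was 1.55 in K27M and 1.11 in WT, in the other direction (exact permutation p = 0.1, the smallest possible, n = 3 each). Any overlap also counts regions touched only at an edge, so this ratio depends on region width and island length, and 1 is not its reference. Islands were shorter in the K27M libraries (mean of the medians 3.93 kb, against 6.33 kb in WT). Of the regions touched, 32.4% had their midpoint inside in K27M and 49.5% in WT (means, n = 3 each). The part of this in the change of direction was not tested.

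The genotype difference in tumours and that in hindbrain neurospheres were set against each other by permuting genotype within each tissue, 9240 arrangements in all, in a test added after the data were seen. They differed by 11.2 points for the share with any overlap (two-sided exact permutation p = 0.00411) and by 8.66 points by midpoint (p = 0.00206, exact). The contrast in shares was seen in the other sets too, at 9.89 points (exact permutation p = 0.00335) by any overlap and 8.73 (exact permutation p = 0.00152) by midpoint in shared regions with H3K4me3, and at 8.23 (exact permutation p = 0.0269) and 7.76 (exact permutation p = 0.0267) in other distal regions. For the midpoint ratio the contrast in the shared distal regions was 0.871 (exact permutation p = 0.00195, adjusted p = 0.0273 over 14 tests), but for the ratio by any overlap it was 0.503 and did not pass (exact permutation p = 0.347), with the genotype difference positive in both tissues (0.943 in tumours and 0.440 in hindbrain). For the midpoint ratio the difference was 0.479 in shared regions with H3K4me3 (exact permutation p = 0.399, adjusted p = 0.431) and 0.441 in other distal regions (exact permutation p = 0.0516, adjusted p = 0.12). Whether these differ from the 0.871 was not tested. The ratio by any overlap also depends on region width and island length, and the part of these in the 0.503 was not tested. Tumours and neurospheres also differed in cre allele, PDGFRα and Trp53 alleles and growth in culture, and these cannot be told apart from tissue.

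Over single regions, 60 shared distal regions (4.08%) had an island in all 3 WT hindbrain libraries, against 6.83% of all merged regions. Of these, 20 (1.36% of the 1469) had none in the K27M hindbrain libraries, where 2.34% of all merged regions did, and 21 had one in all 3, which is 1.43% of the 1469 against 3.09% of all merged regions. None had the reverse pattern, an island in all 3 K27M and no WT library, which 0.0338% of all merged regions had. With 3 against 3 no single region can pass a test.

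Of those 20, the one with the most island reads per kb was chr2:33447187-33449089, with 168, 68.9 and 142 reads per kb in WT experiments 1, 2 and 3. It also had islands in the K27M tumours BT-1, BT-2, BT-3 and BT-6, with 28.5, 98.2, 120 and 177 reads per kb, and in no WT tumour. Its H3K27ac percentile was 61.8 to 86.1 in 5 K27M tumours and 21.4 in BT-5. Of the other 4 named by this rule, 3 lay near each other on chromosome 2: chr2:166057430-166059110, with 66.2 to 95.0 reads per kb, chr2:166005168-166007551, with 25.9 to 95.0, and chr2:166178393-166180283, with 37.0 to 72.0. The first had no island in any tumour and the others had islands in 2 and 3. The first 2 of these regions had the same values, 80 and 95 reads per kb, in WT experiments 2 and 3. A single island over both would give this, so they may not be separate examples. The fifth was chr3:52444432-52449379, with 61.2 to 66.9 reads per kb and islands in BT-3 and BT-9.

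Regions marked in WT hindbrain were marked in tumours at a higher share than the rest, in these as in all merged regions. Of the 60, 50 (83.3%) had an island in at least 1 tumour, against 297 of the 1313 with no WT hindbrain island (22.6%). Over all merged regions the same shares were 90.8% and 23.6%. Per tumour, islands met 3.33% to 63.3% of the 60 in K27M and 1.67% to 50.0% in WT tumours, with means of 26.9% ± 22.7 and 16.0% ± 19.8 (SD, n = 6 and 5). Among the 1313 the means were 6.78% ± 6.59 and 0.914% ± 1.12. The 60 were only 4.08% of the 1469 regions, and in both genotypes most regions with a tumour island lay outside them. An island in a K27M tumour was found over 286 of the 1313 and 44 of the 60, and in a WT tumour over 43 and 32. Over all 1469, 148 regions had a tumour island in BT-3 alone. The mean H3K27ac percentile in the tumours had a median of 58.6 for the 60 and 60.9 for the 1313. These counts are a description, with no test.

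Islands of forebrain K27M neurospheres met 2.11%, 2.246% and 2.38% of the shared distal regions in the forebrain libraries of experiments 1, 2 and 3, all within the range of the hindbrain libraries (mean 2.246% ± 0.136 against 2.72% ± 0.885, SD, n = 3 each; two-sided exact permutation test, p = 0.4, smallest possible 0.1). The difference of -0.477 points was -0.987 without the hindbrain library of experiment 2 (exact permutation p = 0.1, the smallest possible), -0.204 without that of experiment 1 and -0.238 without that of experiment 3, and it was 0 by midpoint. The ratio by midpoint was 0.520 ± 0.0916 in forebrain and 0.494 ± 0.0771 in hindbrain (SD, n = 3 each; exact permutation p = 0.6). All 3 forebrain and no hindbrain library had an island over 2 regions (0.136%), against 0.284% of all merged regions. The reverse was found over 4 regions (0.272%), against 0.453%. In all 9 neurosphere libraries 13 shared distal regions (0.885%) had an island, and in any of them 169 (11.5%), against 2.297% and 14.3% of all merged regions.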

How the data were processed

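Lists of 36 samples (11 H3K27ac, 5 H3K4me3 and 20 H3K27me3) were analysed, and 23 input samples were left out. Tools named in the submitters' processing notes, without their roles, are SICER 1.1, MACS2, bedtools 2.25.0, SAMtools, Picard, BWA 0.7.12 and R 2.14.0. The build is mm9 per the same notes. S2 cell chromatin was added as a spike-in, per the labels' protocols, and no scale factor was used here.

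In the deposited H3K27me3 lists each island carries a count of whole reads. Per the file names they used a window of 200 bp, a gap of 600 bp and an FDR of 1e-05. Island ends were taken as the last base of a window. In the deposited H3K27ac and H3K4me3 lists each peak carries the authors' score, fold enrichment ratio, -log10 p-value, -log10 q-value (2 or more in every list) and summit. All of these belong to a single peak and served only to rank, filter or describe peaks of 1 list. Each list came from 1 sample.

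Autosomal H3K27ac peaks of the 11 tumours were merged where they shared 1 bp, and a tumour called a region if it held a peak there. Rank was the percentile of the region's best peak by fold enrichment within its list. Gaps up to 12500 bp joined regions into runs. An island overlap was 1 bp or more. Covered share used an autosomal span of 2472 Mb, the largest coordinates in the lists. Shares were compared by two-sided exact permutation tests over libraries, ranks with limma 3.58.1 in R 4.3.3 and calls with Fisher's exact test, at a threshold of 0.05. The limma and Fisher scripts were tested on simulated data. Python 3.11.15 with SciPy 1.17.1, pandas 2.3.3, matplotlib 3.10.9 and numpy 2.4.6 served for the rest.

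Named regions were the 5 strongest, 5 weakest and 5 widest, those with islands in all 11 tumours, the 5 with most WT island reads per kb among those marked in all WT and no K27M hindbrain libraries, the 3 per direction with the smallest limma p, since none passed, and the 3 runs with most regions. Others were chosen after their values were seen. The regions, lists and tests were chosen with earlier results of these data known. The labels do not say that samples are separate animals, so a p-value here reflects the spread over samples, which may be technical. No mm9 genome or annotation was used here, so the planned gene lists, cell type markers and sequence motifs could not be applied. Neurosphere libraries are paired by the experiment number in the labels. Their deviations from group means in island calls over all merged regions correlated at 0.01 in each experiment between hindbrain K27M and WT, and at 0.00, 0.05 and 0.02 between forebrain and hindbrain K27M. Alternatives were other overlaps, merging distances, peak thresholds, lists of equal length, other ranked values, sex, the replicate block and each library left out.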

Additional observations from a re-analysis of the deposited data

Results flagged for a closer look

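In 76 groups of 4 to 10 tumours, the highest or lowest value was checked for its distance from the others. Chance marks about 1 in 20 such groups, and 7 values stood apart. The ratio of midpoint share to covered share was 1.99 in the K27M tumour BT-3, against 0.426 to 0.920 in the other 5, and the genotype difference kept its direction without it. The midpoint share of the WT tumour BT-10 was 3.06%, against 0% to 0.885% in the other 4 WT tumours. BT-10 also had the lowest median rank of the shared distal regions among the regions called in every list, 11.95 against 19.1 to 21.3 in the other WT tumours. The 4 others were H3K27ac percentiles of named regions. The region chr2:33447187-33449089 had an H3K27ac percentile of 21.4 in BT-5, against 61.8 to 86.1 in the other K27M tumours, and chr7:86712638-86716180 had 53.5 in BT-2, against 80.2 to 95.0. In BT-10, chr5:22666941-22676442 had 80.1, against 95.9 to 99.7 in the other WT tumours, and chr4:125210272-125213544 had 49.2, against 80.0 to 84.0.

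The genotype difference in the share of shared distal regions under an island differed between tumours and hindbrain neurospheres. The difference of the 2 was 11.2 points by any overlap (exact permutation p = 0.00411), 8.66 points by midpoint (exact permutation p = 0.00206) and 0.871 for the midpoint ratio to covered share (exact permutation p = 0.00195). Shared regions with H3K4me3 had 9.89 and 8.73 points and other distal regions 8.23 and 7.76, so the contrast in shares was seen in all 3 sets, and the ratio by any overlap gave 0.503 (exact permutation p = 0.347). The part of library coverage, edge overlaps, genotype background and culture in these values was not tested.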

How the results depend on the processing

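The number of shared distal regions was 899 with a -log10 q of at least 5, 882 with the same number of peaks (35530) in every list, 1245 with merging within 500 bp, 1293 without H3K4me3 within 2500 bp and 1488 to 1712 with 1 tumour left out. The tumour difference in the share under an island (6.64 points, not passed) passed by midpoint (5.92, exact permutation p = 0.0411) and with equal numbers of islands (4.14, p = 0.026, exact), and ran from 3.84 to 8.02 with 1 tumour left out, passing without BT-5 (8.02, exact permutation p = 0.0317) and without BT-10 (7.62, exact permutation p = 0.0429). Permuted within sex it gave p = 0.107 (exact) and the ratio p = 0.0133 (exact). The difference from other distal regions (-1.73) passed by midpoint (-2.61), by 50% coverage (-2.51) and without BT-3 (-2.32), with a range of -2.32 to -1.34. The cause of these changes was not tested. Fisher's exact test called 2 shared distal regions with equal numbers of islands and 0 otherwise, and these calls depend on how many regions share the full split. With the replicate block, paired by experiment, the hindbrain difference stayed at -4.54 (exact sign-flip permutation p = 0.25, the smallest possible) and the forebrain difference at -0.477 (exact sign-flip permutation p = 0.5). With 3 libraries per group neither the paired nor the unpaired test can reach 0.05, so the block could not change a call. The hindbrain difference was -2.75 by midpoint and -2.31 with equal numbers of islands. The contrast between tissues in the ratio (0.871) was 0.503 and did not pass by any overlap (exact permutation p = 0.347). Ratios by any overlap include regions touched only at an edge. The hindbrain ratio difference (-0.0556) turned to 0.440 by any overlap, and the forebrain ratio difference (0.0268) to -0.190 by any overlap and to -0.00971 and -0.0168 without the forebrain or hindbrain library of experiment 2, with a range of -0.0168 to 0.0782 over the libraries left out. The tumour ratio kept its call in 14 alternatives, and the rank difference under islands (13.2) in 14. By midpoint the rank difference was 24.2 (exact permutation p = 0.00476), but BT-8 had no region with its midpoint in an island and was left out. The other WT medians by midpoint rested on only 2, 13, 45 and 2 regions in BT-7, BT-9, BT-10 and BT-11. Limma called 0 shared distal regions in 16 alternatives, with 47 to 92 at an unadjusted p under 0.05 when 1 tumour was left out. Island calls depend on depth, which the lists do not give, so a missing island is not a measured absence.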
